A study of Mus musculus with 7 samples.

Results

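Of 13479 Argonaute crosslink positions on mouse chromosomes 1 to 19, 479 (3.55%) overlapped no GENCODE M21 transcript on their own strand, and these intergenic positions are described here. They were selected by coordinates alone from the 14054 positions of the deposited crosslink table. For each, the nearest 3′ end of a same-strand gene upstream of it was found, together with the distance past that end, and positions within 10 kb of one were called near and the others distal. There were 267 near and 212 distal positions. For 250 of the near ones, the upstream 3′ end was also the closest gene edge on that strand, while the others lay closer to a downstream 5′ end. A further 66 intergenic positions on chromosomes X and Y and on scaffolds were not members.

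The positions came from PAR-CLIP: cells take up 4-thiouridine and place it in new RNA, ultraviolet light joins it to the protein in contact, and that protein is recovered with its RNA. Eyes of CD-1 mice at postnatal day 0 gave retinas that were kept as explants for 24 h with 0.1 mM 4-thiouridine and 20% horse serum, then exposed to 365 nm light at about 300 mJ/cm2. Each library held 6 retinas, so it represents a pool of animals and of all retinal cell types. There were 5 libraries made with the 2A8 Argonaute antibody and 2 made with IgG, and the labels name no engineered allele for either group.

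The deposited table pools the Argonaute libraries and gives each position a score, the number of libraries that contained it, from 2 to 5. The IgG libraries, and any Argonaute library on its own, were not analysed here. The read depth behind a position is unknown. All comparisons below are therefore between classes of positions or genes. Neighbouring positions share an RNA and are not independent replicates, so p-values are smaller than independent RNAs would give, and the 95% intervals cover counting error only. Only RNA sampled in 2 or more libraries can enter the table, and whether RNA abundance moved with the shares below was not tested.

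Argonaute proteins carry microRNAs, which pair through their seed with target RNAs, most often in the 3′ untranslated region (UTR) of an mRNA, and lower its stability or translation. Many genes end at more than one poly(A) site, and neurons are known for long 3′ UTRs that reach past the ends annotated in other tissues. A gene's first exon can also lie far upstream of the start given in a reference set. A crosslink outside every annotated transcript can thus fall in an RNA that the annotation does not cover.

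Sequence was available only for the few intergenic positions that faced an exon of the opposite strand, since genome sequence was not used here. There were 10 such positions, and the base at the position was T, the base that 4-thiouridine replaces, in 10 of 10. The 5 that did not face a UTR are shown because they give the crosslinked letter itself. Each stretch is the strand of the crosslinked RNA in mm10, 5′ to 3′, with the crosslinked base in capitals.

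Past Lmbr1, chr5:29217905-29217929, minus strand: tgtttctgcaaaTtggcatccatgt
Past Cpz, chr5:35396523-35396547, minus strand: tttaaaattaaaTgcactttaattt
Past Mcmbp, chr7:128694391-128694415, minus strand: ctactatctgacTtccaaagattga
Past Acvr2b, chr9:119441889-119441913, plus strand: ttgcgtggctctTtgctcctttttc
Past Zfp825, chr13:74476008-74476032, minus strand: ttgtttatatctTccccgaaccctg

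The Mcmbp position was found in 3 libraries and the other 4 in 2. The stretch past Cpz, which lay 105683 nt beyond the annotated end, held a 7-base match to the miR-17 family seed starting 1 nt after the crosslink. Among the 10 positions, matches to any of 26 microRNA families (miR-124 was not searched) within 20 nt, or within the shorter exon at 3 positions, were found at 2, the other being a miR-26 match 1 nt after the crosslink at chromosome 9, position 64708788, which lay 6511 nt past Rab11a, a GTPase of recycling endosomes, and was found in 3 libraries. How often other windows of this length match a family was not measured, so these matches alone do not mark microRNA sites. One more position had RefSeq sequence, because it fell in the start region of the histone gene H2ac4, and it too was a T.

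Past Hist1h2bb, position 23751115 of chromosome 13, plus strand: ctttgcctttacTgatacttaaacg

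The study concerned miR-216a and miR-216b, and its deposited miR-216 matches were joined to the positions here. A position was called linked if a match on its strand lay within 20 nt and carried the same number of libraries. By this rule 17 of the 479 positions were linked to a match for one or both microRNAs. The mature sequences of the 2 microRNAs are given from RefSeq, with the seed (bases 2 to 8) in capitals.

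miR-216a-5p: uAAUCUCAgcuggcaacuguga
miR-216b-5p: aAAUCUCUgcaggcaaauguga

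The first question was where between genes the positions lay. Most were close behind a gene: 85 of 479 (17.7%, exact interval 14.4 to 21.5) lay within 1 kb past a 3′ end, 221 (46.1%, 41.6 to 50.7) within 5 kb and 267 (55.7%, 51.2 to 60.2) within 10 kb. The same distances before the 5′ end of the next gene held 10, 58 and 98 positions. Per megabase of intergenic sequence, the first kilobase past 3′ ends held 1.97 positions (exact Poisson interval 1.57 to 2.43), the stretch from 1 to 5 kb held 0.846 and that from 5 to 10 kb held 0.246. Beyond that the density was 0.0792 from 10 to 50 kb and 0.0606 over 50 kb.

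On the 5′ side the density had no such peak. It was 0.231 per megabase in the first kilobase before a 5′ end (0.111 to 0.426) and 0.299, 0.223, 0.157 and 0.102 in the bins that follow. Each gap between genes has 1 edge of each kind, so the sides can be compared directly. Of 301 positions with their nearest edge within 10 kb, that edge was a 3′ end for 250 (83.1%, 78.3 to 87.1; two-sided exact binomial test, p = 1.13e-32, adjusted p = 6.78e-32 over 6 tests). The excess near gene edges was thus on the 3′ side. The positions closest to an end lay 6 nt past Gm527, 7 nt past Yeats4 and 12 nt past Rbm12b2. At the 10 kb limit, the last near position lay 9844 nt past Blcap and the first distal one 10236 nt past Smad2, both in 2 libraries (these 5 genes were chosen after their values were seen).

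**Figure D1:**
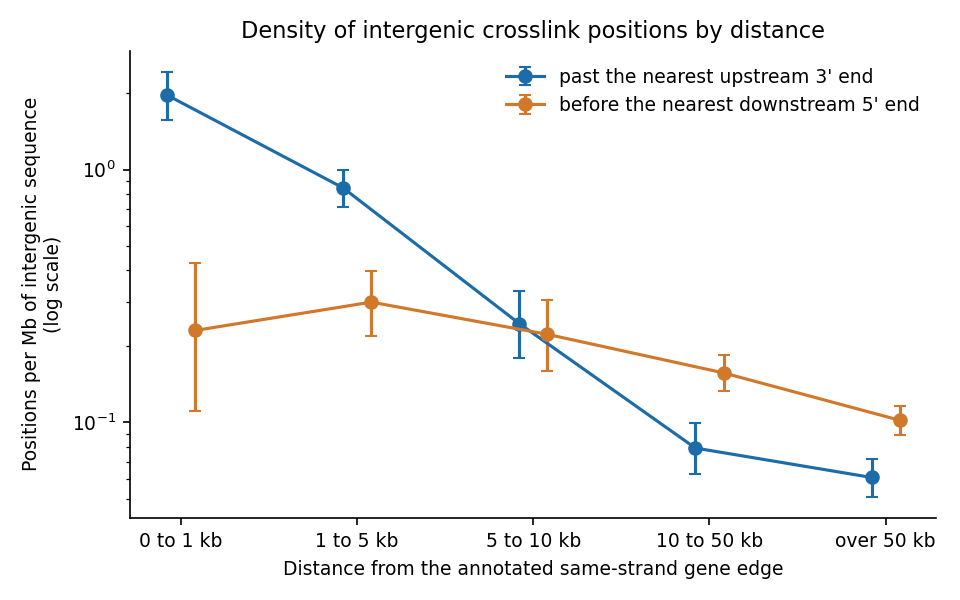
Density of the intergenic crosslink positions, per megabase of intergenic sequence on a log scale, by distance past the nearest upstream same-strand 3′ end or before the nearest downstream 5′ end. Points are pooled over the Argonaute libraries and bars are exact 95% Poisson intervals. The 3′ side falls from 1.97 in the first kilobase to 0.0606 over 50 kb, while the 5′ side lies between 0.102 and 0.299.

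The number of libraries that shared a position was then compared. Of the 479 positions, 381 were found in 2 libraries, 70 in 3, 18 in 4 and 10 in 5. In all, 98 (20.5%, 16.9 to 24.4) were found in 3 or more, called recurrent below, against 25.6% of all positions on these chromosomes and 25.8% of the 13000 annotated ones. Intergenic against annotated positions gave 0.738 as the odds ratio (0.583 to 0.928; Fisher's exact test, two-sided, p = 0.00768, adjusted p = 0.0115). That difference was lost without the 42 positions upstream of Robo2 described below (Fisher's exact test, odds ratio 0.819, adjusted p = 0.114), with X and Y added (0.810, adjusted p = 0.0593), and with 1 position kept per upstream gene (0.763, adjusted p = 0.0526).

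Recurrence differed with distance past the 3′ end. It was 30.6% (21 to 41.5) for the 85 positions in the first kilobase and 27.2% (19.9 to 35.5) for the 136 from 1 to 5 kb. It was 10.9% (3.62 to 23.6) for the 46 from 5 to 10 kb, 17.3% for the 75 from 10 to 50 kb and 12.4% for the 137 beyond. At this limit of 3 libraries, the positions closest to gene ends were thus in the range of annotated 3′ UTRs. Of 7073 positions in 3′ UTRs, 33.0% (31.9 to 34.1) were recurrent. The outer positions lay between introns, with 8.72%, and coding sequence, with 21.8%. Presence in all 5 libraries was seen for 1 of the 85 and 5 of the 136, against 361 of the 7073 in 3′ UTRs (5.10%). That difference was not tested. Near positions were recurrent more often than distal ones, at 68 of 267 (25.5%) against 30 of 212 (14.2%), with an odds ratio of 2.07 (1.26 to 3.45; Fisher's exact test, two-sided, p = 0.00291, adjusted p = 0.00581). The call was lost with 1 position per upstream gene (Fisher's exact test, odds ratio 1.35, adjusted p = 0.342) and with a limit of 4 libraries (2.06, adjusted p = 0.139). Among positions outside RefSeq, a second gene set described below, 23 of 117 near (19.7%) and 26 of 126 distal ones (20.6%) were recurrent. No excess of near positions was seen there, and this split was not tested.

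Within the near positions, those up to 5 kb were recurrent in 63 of 221 cases (28.5%) and those from 5 to 10 kb in 5 of 46. The odds ratio was 3.26, with an interval of 1.21 to 11.0 (Fisher's exact test, two-sided, p = 0.0146, adjusted p = 0.0292 over 6 tests added after the data were seen). With a limit of 4 libraries the call was lost (same exact test, 4.22, adjusted p = 0.258), and 1 position per upstream gene was not tried. Against annotated 3′ UTRs, the near positions as a whole were recurrent less often (odds ratio 0.695, 0.517 to 0.924; Fisher's exact test, two-sided, p = 0.00957, adjusted p = 0.0115). By the same exact test, the deficit held with a limit of 4 libraries (odds ratio 0.499, adjusted p = 0.00388). It also held with 1 position per upstream gene, the one closest to the end (same exact test, 0.613, adjusted p = 0.00698). The 3′ UTR positions were not thinned in this way. At 3 libraries, the call depended on the outer part of the window and on the gene ends used. By the same exact test, the odds ratio was 0.811 with the limit at 5 kb (adjusted p = 0.201) and 0.896 with 1 kb (adjusted p = 0.728). With ends of protein-coding genes alone it was 0.752 (same exact test, adjusted p = 0.0737).

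**Figure D2:**
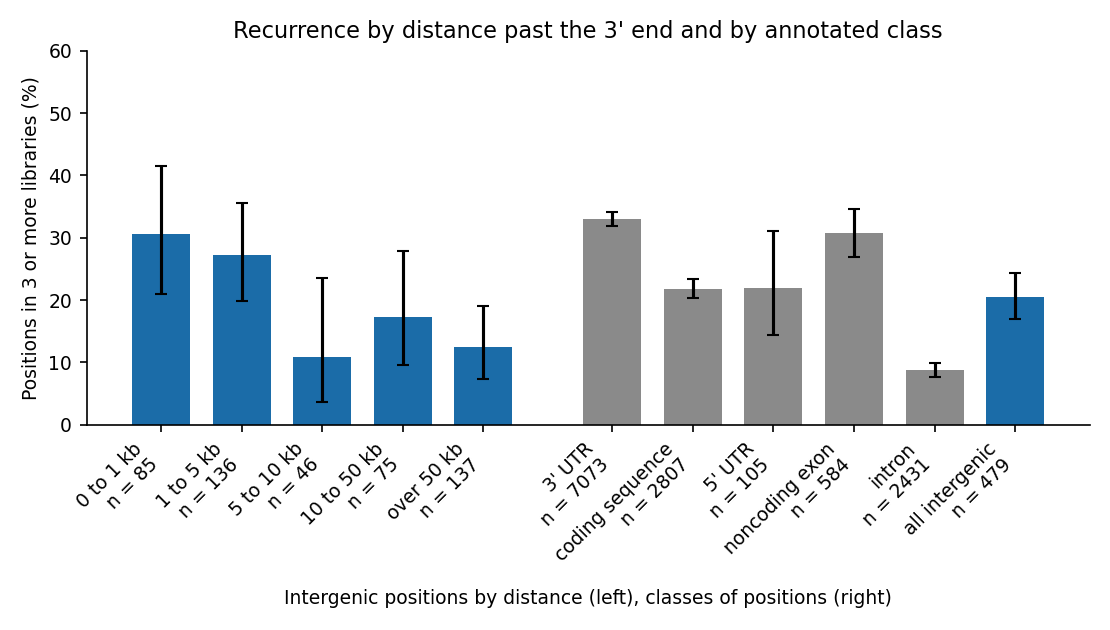
Percent of positions found in 3 or more of the Argonaute libraries, for intergenic positions by distance past the nearest 3′ end (left), and for the annotated classes and all intergenic positions (right). Bars start at 0, error bars are exact 95% binomial intervals and n is the number of positions. The first distance bins, at 30.6% and 27.2%, lie near the 33.0% of 3′ UTRs, and introns are lowest at 8.72%.

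The genes that the near positions followed were next asked whether Argonaute also crosslinked to their annotated exons. Over all genes on these chromosomes 8.34% had an exonic crosslink. Among the 190 genes upstream of near positions 78 did (41.1%, 34 to 48.4), against 20 of 148 (13.5%, 8.45 to 20.1) upstream of distal positions. This gave 4.44 as the odds ratio (2.50 to 8.17; Fisher's exact test, two-sided, p = 1.84e-08, adjusted p = 5.53e-08). With protein-coding genes alone, of which 19.7% had an exonic crosslink, it was 2.21 (same exact test, adjusted p = 0.00188). With near set at 5 kb the odds ratio was 3.13 (same exact test, adjusted p = 1.22e-05). With near set at 1 kb it was 1.44 and the call was lost (same exact test, adjusted p = 0.234). Genes with positions only from 1 to 10 kb then count in the other group, and why the call was lost was not tested. Of the 190 genes 151 were protein-coding, with 220 of the 267 near positions; 11 were lincRNAs and 4 were microRNA genes.

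RefSeq, a second gene set on the same assembly, was used to see whether another annotation already carried these genes further. Among the 151 protein-coding upstream genes, RefSeq placed the 3′ end more than 100 nt beyond the GENCODE end for 79, and more than 1000 nt beyond it for 65. Over all 20211 protein-coding genes with a counterpart these numbers were 1859 and 1049. Of the 479 positions, 145 (30.3%) fell in the stretch that RefSeq added past the 3′ end of 86 genes. The share was 60% (48.8 to 70.5) in the first kilobase, 57.4% from 1 to 5 kb, 19.6% from 5 to 10 kb and 9.33% from 10 to 50 kb. A RefSeq gene span can include introns, so lying inside one does not place a position in a 3′ UTR.

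A further 61 positions (12.7%) fell in the stretch that RefSeq added before the 5′ end of 14 genes, 17 lay in RefSeq genes with no GENCODE counterpart, 13 in genes of unknown strand, and 243 (50.7%) in none. Near positions inside a RefSeq 3′ extension were recurrent in 43 of 138 cases (31.2%), and near positions outside RefSeq genes in 23 of 117 (19.7%). The odds ratio of 1.85 (0.999 to 3.48) missed the threshold after adjustment (Fisher's exact test, two-sided, p = 0.0445, adjusted p = 0.0534), and passed it with positions within 20 nt merged (1.97, adjusted p = 0.0346) and with a limit of 4 libraries (5.31, adjusted p = 0.00848). Within 5 kb it was 1.53 (same exact test, adjusted p = 0.260). Like the others added after the data were seen, this comparison was not planned.

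The poly(A) signal, the hexamer AATAAA or its common variant ATTAAA, sits shortly before most cleavage sites. It was searched on the transcript strand in the last 40 nt before the annotated end. Of all protein-coding genes on these chromosomes 69.6% had one of the 2 hexamers there. Of the 151 protein-coding genes upstream of near positions, 62 had AATAAA, 14 had ATTAAA and 75 had neither, so that 50.3% (42.1 to 58.6) had a signal. Other genes with an exonic crosslink had one in 3222 of 4015 cases (80.2%, 79.0 to 81.5). This gave 0.250 as the odds ratio, with an interval of 0.177 to 0.351 (Fisher's exact test, two-sided, p = 1.17e-15, adjusted p = 7.00e-15). The comparison was among the 6 tests added after the data were seen.

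The annotated ends that near positions followed thus lacked the hexamers more often than the ends of other crosslinked genes. The comparison held among upstream genes that had an exonic crosslink themselves (same exact test, odds ratio 0.313, adjusted p = 1.72e-05) and with AATAAA alone (0.358, adjusted p = 5.50e-09). Upstream genes with a position inside a RefSeq extension had a signal in 28 of 70 cases (40%), and the other upstream genes in 48 of 81 (59.3%; odds ratio 0.461, 0.227 to 0.924; Fisher's exact test, two-sided, p = 0.0225, adjusted p = 0.0338). Without the 5 genes with the most positions this second difference was lost (same exact test, odds ratio 0.520, adjusted p = 0.0804). The split by RefSeq was likewise among the tests added after the data were seen. A missing hexamer says only that these letters are not in this window.

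**Figure D3:**
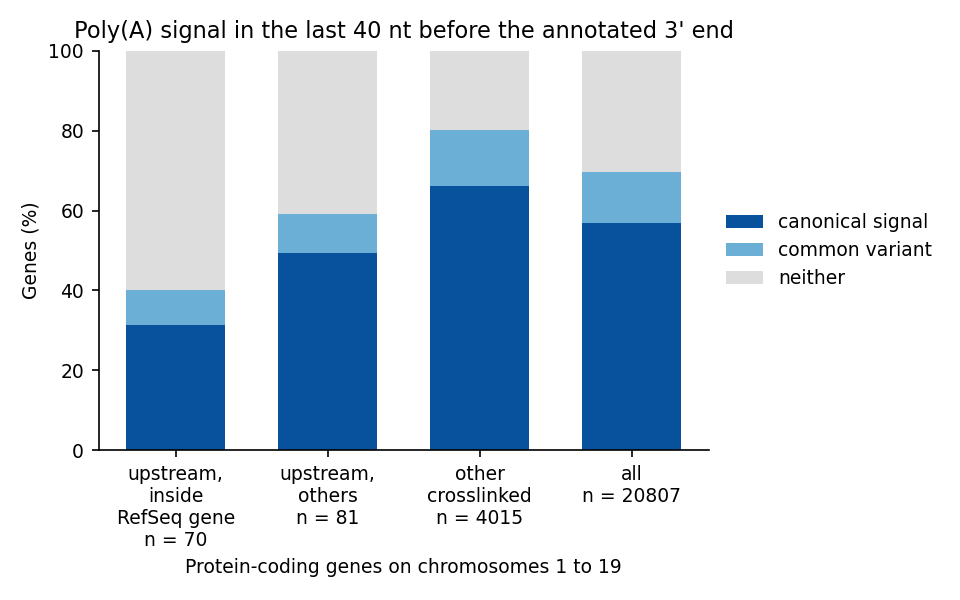
Percent of protein-coding genes on chromosomes 1 to 19 with the canonical poly(A) hexamer, its common variant or neither in the last 40 nt before the annotated 3′ end; n is the number of genes. The upstream genes of near positions are split by whether a position lay inside the RefSeq gene; 40% and 59.3% of them had a signal, against 80.2% of other crosslinked genes and 69.6% of all.

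Single positions were the rule: 160 of the 190 upstream genes had 1 near position, 30 had 2 or more and 15 had 3 or more. Those 30 genes held 107 of the 267 near positions. Distances below are from the GENCODE 3′ end in mm10, and the order of library numbers follows the distance.

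The genes with most positions are taken by the known role of their product, which was not tested as a group. Acvr2b, a receptor for activins and related ligands (chromosome 9, 119402118 to 119434995, plus strand), had 10 positions from 21 to 6906 nt past its end, of which 3 were in 3 libraries and 7 in 2. Its last position is the one whose sequence is shown above. Between 4596 and 4642 nt there were 4 positions, in 2, 3, 2 and 3 libraries. RefSeq ended Acvr2b 7153 nt farther than GENCODE, so all 10 lay inside the RefSeq gene, and the annotated exons held 1 position, in the 3′ UTR. Smad4, the shared partner of receptor-activated Smads, had 3 positions at 1860, 2572 and 2623 nt, each in 2 libraries and inside the RefSeq gene, and none in its annotated 3′ UTR.

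Hipk2, a nuclear serine/threonine kinase (chromosome 6, 38694390 to 38876165, minus strand), had 8 positions from 709 to 5949 nt. The one at 3432 nt was found in 4 libraries and the other 7 in 2. All 8 lay within the 6878 nt that RefSeq added, and the annotated gene held 4 positions in its 3′ UTR and 4 in coding sequence. Pde4d, a phosphodiesterase that degrades cyclic AMP (chromosome 13, 108449948 to 109953461, plus strand), had fewer positions of higher recurrence: those at 1066 and 1383 nt were found in 5 libraries and that at 2230 nt in 3. RefSeq ended it 2508 nt later. Map3k3, a kinase at the head of MAP kinase cascades, had a position at 126 nt in 5 libraries and one at 147 nt in 2.

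Nrp1, a coreceptor for semaphorins and VEGF in axon guidance (chromosome 8, 128358604 to 128503363, plus strand), had 5 positions, all in 2 libraries and all between 1943 and 2069 nt. RefSeq placed its end 2113 nt past the GENCODE end, so the group lay just before the RefSeq end, and the GENCODE exons held none. Arf6, a GTPase of endocytic traffic and the actin cortex (chromosome 12, 69372150 to 69373783, plus strand), had 7 positions from 822 to 2116 nt, in 2, 3, 4, 2, 4, 2 and 2 libraries. Arf6 too had no position within its GENCODE gene, and its RefSeq end lay 2197 nt farther, so every crosslink assigned to Nrp1 or Arf6 lay in sequence that only RefSeq gave them.

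Several genes encode transcription factors or corepressors. Lcor, a ligand-dependent nuclear receptor corepressor (chromosome 19, 41482637 to 41562261, plus strand), had 10 positions from 90 to 4947 nt, in 3, 2, 2, 3, 2, 2, 2, 2, 2 and 4 libraries. RefSeq carried Lcor 33900 nt past the GENCODE end. Inside that stretch the microRNA gene Mir8091 took the place of nearest upstream gene for 3 more positions, which lay 27972, 31683 and 32260 nt past the GENCODE end of Lcor and were found in 3, 3 and 2 libraries. Counted by the RefSeq gene, Lcor thus had 13 positions, and its GENCODE 3′ UTR had 3.

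Onecut1, a transcription factor of horizontal and ganglion cell development (chromosome 9, 74861921 to 74891781, plus strand), had 6 positions at 1616, 1647, 1687, 1867, 1944 and 1969 nt. They were found in 2, 2, 2, 3, 4 and 5 libraries, so the recurrence was highest at the far edge of the group, at position 74893750. The GENCODE end carried AATAAA, and the RefSeq end lay at -2133 nt relative to it, inside the GENCODE gene, so neither set reached these positions. Otx2, a homeobox factor of photoreceptor and bipolar cells, had 3 positions at 858, 942 and 1815 nt, each in 2 libraries, and RefSeq, 896 nt longer, covered the first. Zbtb16, a zinc finger repressor, had 4 positions at 538, 804, 1900 and 2013 nt, in 3, 3, 3 and 2 libraries and all inside the RefSeq gene, and none in its annotated 3′ UTR. Zic2, which sets the ipsilateral course of ganglion cell axons, had positions at 31 nt in 4 libraries and at 258 nt in 2.

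Klhl11, a Kelch protein (chromosome 11, 100462614 to 100472741, minus strand), had pairs of positions at 145 and 185 nt and at 3128 and 3172 nt, of which only the last was in more than 2 libraries, with 4. Pura, a protein that binds single-stranded DNA and RNA, had positions at 1255, 3710 and 5264 nt in 3, 2 and 2 libraries, with no RefSeq extension and 4 positions in its annotated 3′ UTR. E130114P18Rik had 5 positions from 2222 to 2822 nt, in 2, 2, 3, 3 and 2 libraries, past both its GENCODE end and its RefSeq end, which was 258 nt longer. A630036G19Rik had 3 near positions, in 2 libraries each, which lay in the Robo2 stretch described below.

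**Figure D4:**
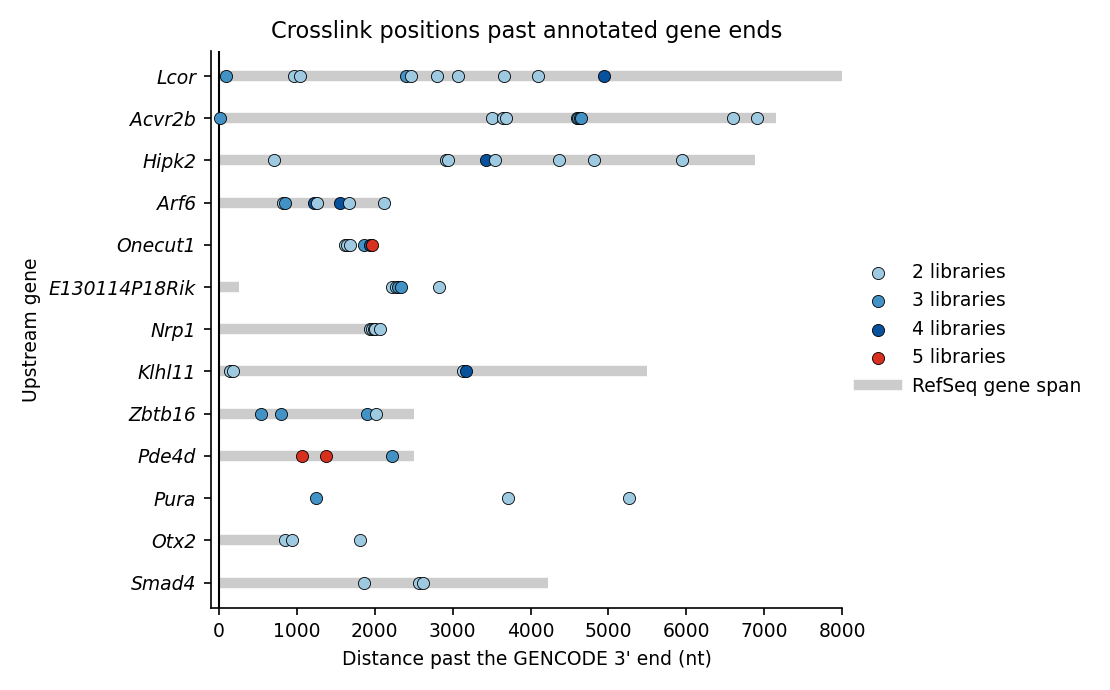
Positions past the GENCODE 3′ end of the 13 genes with 3 or more near positions other than Mir8091 and A630036G19Rik, by distance in nt; colour gives the number of libraries. Grey bars show how far the RefSeq gene runs past the GENCODE end (the Lcor bar, 33900 nt, is cut at the axis limit). Positions of Acvr2b, Hipk2, Arf6 and Nrp1 lie within the bar, while Onecut1 and Pura have none and E130114P18Rik lies beyond it.

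Some genes had a single near position that was found in many libraries. Cdk7, the kinase of the general transcription factor TFIIH, had one in 5 libraries at 4560 nt, inside the RefSeq gene, and no crosslink within its GENCODE exons. Xkr4, an XK-family membrane protein, had one in 5 libraries at 5391 nt, inside a RefSeq gene that was 6168 nt longer. Fam13b, a protein with a RhoGAP domain, had one in 5 libraries at 1243 nt. Positions in 4 libraries were found 122 nt past Vps13c, a lipid transfer protein, 2029 nt past Gid8, a ubiquitin ligase subunit, and 1776 nt past Zp3, a coat protein of the oocyte. The first 2 of these lay inside the RefSeq gene, and the last did not.

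The position 384 nt past Zfp609, a zinc finger protein, was found in 4 libraries and was linked to a deposited miR-216a/b match; Zfp609 had no crosslink in its GENCODE gene. The pseudogene Gm6485 had positions at 320 and 338 nt in 3 and 4 libraries, which stay uncertain because a pseudogene can share reads with its parent gene. Over all intergenic positions, 17 of 479 (3.55%) were linked to a miR-216 match, against 2.89% of all positions on these chromosomes. The link was found for 8 of 267 near positions (3.0%) and 9 of 212 distal ones (4.25%), with an odds ratio of 0.697 (0.230 to 2.08; Fisher's exact test, two-sided, p = 0.469). It was 0.475 with near set at 5 kb (same exact test, p = 0.216) and 0.444 with X and Y added (p = 0.0633). The share was below that of distal positions in each, and none passed the threshold.

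Gene lists for the tissue were read for how many members had a near position, beside 151 of 20807 protein-coding genes, of which 4093 had an exonic crosslink (matched by symbol). Of 60 retinal transcription factors, 40 had an exonic crosslink and 2, Onecut1 and Otx2, had near positions. Of 50 axon guidance genes these numbers were 19 and 2, the latter being Nrp1 and Efna5, an ephrin with 1 position in 2 libraries at 465 nt. RNA-binding proteins had 48 of 57 crosslinked in exons and 1 with a near position, the splicing factor Mbnl2, at 3197 nt in 2 libraries. Chromatin regulators had 50 of 63 and 1, the remodeler Chd7, at 880 nt in 2 libraries, and cytoskeleton and trafficking genes had 41 of 51 and 1, Arf6.

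No gene of the lists of synaptic and adhesion proteins (64 genes, 29 crosslinked), microRNA pathway (34, 22) and ion channels and receptors (59, 13) had a near position. The list of markers for non-neural cells of the eye had none among 29 genes, and 2 of those had an exonic crosslink. The counts are small, and no list was tested. The lists do not hold every gene of their kind: the potassium channel gene Kcnh5, on no list, had a near position at 569 nt in 2 libraries.

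The largest group of positions in one gene lay upstream and not downstream. Robo2, a receptor for Slit proteins that guides retinal ganglion cell axons, starts at 74411825 on the minus strand of chromosome 16 in GENCODE. From 88930 to 663822 nt upstream of that start there were 42 intergenic positions, between 74500755 and 75075647. Of these, 1 was found in 3 libraries and all the others in 2, and 3 lay within 10 kb past the end of another annotated gene and so counted as near. The median gap between neighbours was 8821 nt, the smallest 23 and the largest 70249. The annotated Robo2 gene held 8 positions, 5 in the 3′ UTR and 3 in introns.

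RefSeq listed 3 Robo2 start sites, of which 1 was the GENCODE start and the others lay 680945 and 1035468 nt upstream. All 42 positions lay downstream of the start at 75092770, the nearest by 17123 nt, and none lay between that start and the farthest one. Nfia, a transcription factor of Müller glia, had the same arrangement on a smaller scale: 4 positions, each in 2 libraries, lay 40556 to 179705 nt upstream of its GENCODE start and downstream of a RefSeq start at 97581943. The stretches around the GENCODE start of Robo2, its next start upstream and the upstream start of Nfia are shown because they bound these groups. They are from RefSeq on the mm10 assembly, with the 10 bases from the start site on in capitals.

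Robo2, chr16:74411816-74411845, minus strand: ggtcgcagcgcagcctccgcCTCTGAAGCG
Robo2, chr16:75092761-75092790, minus strand: tctcatctttttttttttttCACACGGTCC
Nfia, chr4:97581923-97581952, plus strand: ccactgcaaatgttttctcaATTAGGTGTC

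Over the 300 nt around each start, the GENCODE start of Robo2 was 65% GC with 17 CG dinucleotides, while its next start upstream and the upstream start of Nfia were 45% and 44.7% GC with 5 and 2. The farthest Robo2 start was 53.3% GC with 9. The median over 32851 RefSeq start regions of the same length was 52.7% GC with 7 CG. None of these 4 regions held TATAAA, searched on the gene's strand, which 8.32% of all such regions held.

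Positions inside RefSeq 5′ extensions, of which Robo2 gave 42 of 61, were recurrent in 3 cases (4.92%, 1.03 to 13.7). Introns, at 8.72%, were within that interval (odds ratio 0.542, 0.108 to 1.69; Fisher's exact test, two-sided, p = 0.484), and without Robo2 the odds ratio was 1.23 (adjusted p = 0.679). Most of the evidence on RefSeq 5′ extensions thus came from 1 gene, and the comparison with introns was added after the data were seen. Positions in RefSeq 3′ extensions were recurrent in 30.3% of cases, and the difference between the kinds of extension was not tested.

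**Figure D5:**
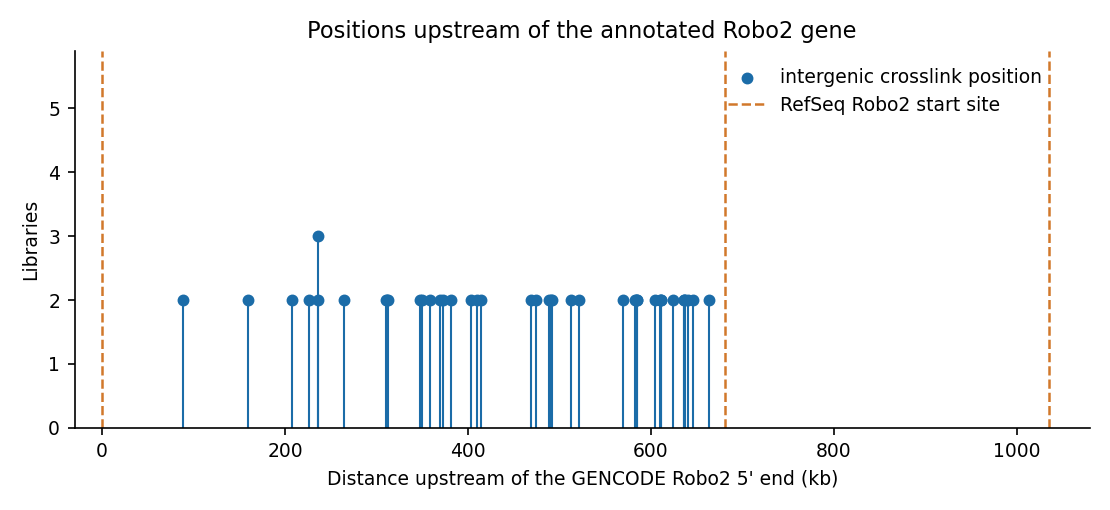
Intergenic positions upstream of the GENCODE Robo2 gene, by distance from its 5′ end in kb (horizontal) and number of libraries (vertical). Dashed lines mark the start sites that RefSeq gives. The 42 positions are spread from 88930 to 663822 nt, before the RefSeq start at 680945 nt, and all but 1 were found in 2 libraries.

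Far from gene ends, clusters were rare. Joining distal positions with gaps of up to 1000 nt gave 2 clusters of 3 or more. One lay in the Robo2 stretch at 74995906 to 74996751, and the other at 17205346 to 17206020 on the plus strand of chromosome 17, inside the RefSeq gene Gm38396 and 58515 nt past Zfp97. Each held 3 positions, all in 2 libraries. With gaps of up to 100 nt there was no cluster of 3, and with 5000 nt there were 5, of which 4 lay in the Robo2 stretch.

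The 1000 nt limit also gave 12 pairs, such as one past Neu1 in 2 and 4 libraries and one past Cmtm7 in 2 and 3 (chosen after their values were seen), and 182 of the 212 distal positions stood alone. A few distal positions recurred in every library. Of the 212 distal positions, 126 lay outside every RefSeq gene, and 26 of these (20.6%, 13.9 to 28.8) were recurrent, more often than intronic positions (odds ratio 2.72, 1.66 to 4.33; Fisher's exact test, two-sided, p = 5.75e-05, adjusted p = 1.72e-04). The odds ratio was 3.05 with positions antisense to a gene left out (same exact test, adjusted p = 1.98e-04) and 3.51 with a limit of 4 libraries (adjusted p = 0.0217). Distal positions found in 5 libraries were on chromosome 4 at 142459261, on chromosome 8 at 34185459 and on chromosome 17 at 26999817. They lay 139180 nt past 6330411D24Rik, 110397 nt past Gm23177 and 19993 nt past Bak1, a pore-forming apoptosis protein, and all were outside RefSeq genes.

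The position past Bak1 faced the genes Ggnbp1 and Zbtb9 on the opposite strand. Over all 479 positions, 87 lay opposite a gene, and the share among annotated positions was not determined. Of the distal positions in 4 libraries, which were chosen after their values were seen, one lay 19206 nt past Xkr6 inside its RefSeq gene, one 30203 nt past Neu1 and one 163625 nt past Mrpl57. No intergenic position lay inside a RefSeq tRNA, snoRNA, snRNA, rRNA or microRNA gene. One, in 3 libraries at position 9834344 of chromosome 13, lay 125 nt past Gm24187, which GENCODE lists as a microRNA gene; the others that followed a GENCODE microRNA gene lay more than 1 kb past it.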

How the data were processed

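The deposited tables pool the 5 Argonaute libraries; each crosslink has a score that counts its libraries, per the file headers. The mm10 build, CASAVA 1.8.2, bedtools and STAR are named in the submitters' processing notes. Peak-calling steps and filters are not given in the sources that were used. The members, gene lists and comparisons were chosen with earlier results of these data known.

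The base after each BED start was classed on its own strand with GENCODE M21 (first match of 3′ UTR, CDS, 5′ UTR, other exon, intron, else intergenic). RefSeq spans of GRCm38.p6, the mm10 assembly, took their strand from the RefSeq start-region table (27024 genes) or the GENCODE gene of the same name (17524); 5445 had none. Shares have Clopper-Pearson intervals. Fisher's exact test (two-sided) compared classes, and an exact binomial test compared sides, with Benjamini-Hochberg adjustment over 6 planned and 6 added tests at 0.05, in Python 3.11.15, SciPy 1.17.1, pandas 2.3.3 and NumPy 2.4.6. Assignment was tested on planted positions, and Fisher's exact test on simulated independent counts. Such counts do not cover neighbouring positions that share an RNA. The planned microRNA comparison used the link to deposited miR-216 matches, since genome sequence was not used here. That link was made here, from a match within 20 nt on the same strand with the same number of libraries. Of 27 microRNA families 26 had a RefSeq mature sequence.

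Genes named are up to 15 with the most near positions, up to 15 with a position in 4 or 5 libraries by score then distance, up to 2 of each list, far clusters, and positions in 5 libraries. Others, such as Nfia, were chosen after their values were seen. Alternatives changed the distance, the library limit, the merging of positions, the gene ends, the chromosomes and the genes included.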

Additional observations from a re-analysis of the deposited data

How the results depend on the processing

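Of 44 combinations of a planned test and an alternative, 35 kept the direction and the side of the threshold, as did 12 of 17 for the added tests. Values are odds ratios with adjusted p from two-sided Fisher's exact tests. The deficit of recurrent positions against annotated ones passed no longer with X and Y (0.810, 0.0593) and without the Robo2 positions (0.819, 0.114). Nor did it pass with 1 intergenic position per upstream gene against all annotated positions (0.763, 0.0526). Near against distal was lost at 4 libraries (2.06, 0.139) and with 1 position per gene (1.35, 0.342). Near against 3′ UTR was lost with protein-coding ends (0.752, 0.0737), at 5 kb (0.811, 0.201) and at 1 kb (0.896, 0.728). It was kept at 4 libraries (0.499, 0.00388) and with 1 near position per gene against all 3′ UTR positions (0.613, 0.00698). The exonic crosslink of upstream genes was lost at 1 kb (1.44, 0.234), 5 kb against the outer window at 4 libraries (4.22, 0.258), and the split of poly(A) signals by RefSeq without the 5 genes with the most positions (0.520, 0.0804). The RefSeq 3′ comparison passed with merged positions (1.97, 0.0346) and at 4 libraries (5.31, 0.00848), but not within 5 kb (1.53, 0.260). The RefSeq 5′ comparison changed direction without Robo2 (1.23, 0.679), with no call either way. Far clusters numbered 0, 5 and 4 at gaps of 100, 5000 and 50000 nt. Apart from the constructions themselves (fewer or other positions), the cause was not tested. Leaving out Robo2, 1 position per gene, the 5 genes and the added tests were chosen after seeing the data. No paired analysis was possible because the tables pool the Argonaute libraries. Leaving out single libraries could not be done either.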
